A study of Aspergillus nidulans with 4 samples.

Results

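Reads on the antisense strand of Aspergillus nidulans genes were set against reads on the sense strand of the same gene, separately in each of 4 RNA-seq libraries. The measure is the antisense share, the antisense counts of a gene as a percentage of its sense and antisense counts together. A gene entered a library when both of its strands had a deposited count there and the 2 counts summed to 100 or more. Of 8419 genes listed on either strand, 5103 entered at least 1 library: 4597 in glucose with ammonium, 3575 in glucose with urea, 1496 in fructose with ammonium and 2269 in fructose with urea. The 1019 genes that entered all 4 libraries are used where the libraries are compared over the same genes.

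All libraries came from mycelium of the biA1 strain, the wild type of the study, grown in minimal medium at 37 °C for 9 to 12 h, and each was made from the combined RNA of 3 cultures. Carbon was given as glucose at 1%, which the submitters class as repressing, or as fructose at 0.1%, which they class as non-repressing. Nitrogen was given as ammonium tartrate at 10 mM (repressing) or as urea (non-repressing). For urea the labels disagree, with 10 mM per sample and 5 mM in the protocol. Tartrate was present only with ammonium, and the amount of sugar differed together with its kind. Values below are given in the order glucose with ammonium, glucose with urea, fructose with ammonium and fructose with urea unless a medium is named. With 1 library for each medium, a difference between media cannot be told apart from a difference between libraries, no test was possible, and "higher" and "lower" describe these libraries.

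Antisense transcripts are RNAs read from the strand opposite to a gene's coding RNA. In filamentous fungi they can start at promoters of their own inside or behind a gene, or they can be long ends of a neighbouring transcript that run into the gene from the other side, since fungal genes lie close together. In Aspergillus nidulans the use of carbon and nitrogen sources is controlled at transcription, with the repressor CreA acting when glucose is at hand and the activator AreA acting when ammonium is not, so that sense levels of many metabolic genes differ between such media. The antisense share says how the opposite strand stood beside the sense strand of the same gene, and a difference in it can come from either strand.

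Antisense reads were not a trace signal in any medium. Over all listed genes, antisense counts summed to 1058595, 616794, 210543 and 264514 beside sense counts of 2606076, 1698692, 547041 and 812637. The antisense strand therefore held 28.9%, 26.6%, 27.8% and 24.6% of the counts, with exact 95% intervals no wider than 27.7% to 27.9%, which is the interval in fructose with ammonium. These intervals, and all below, are Clopper-Pearson intervals that cover counting error only, because amplified reads do not stand for independent molecules. The glucose with ammonium library was the deepest and the fructose with ammonium library the shallowest, so fewer genes passed the minimum with fructose.

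Most genes had an antisense share between 10% and 50%. The median share per gene was 27.6% (middle range of genes, 21.7% to 34.2%) in glucose with ammonium. It was 23.4% (17.9% to 30.6%) in glucose with urea, 22.8% (16.9% to 30.9%) in fructose with ammonium and 19.2% (14.1% to 25.7%) in fructose with urea. A share of 10% or more was found in 98.7%, 95.9%, 94.9% and 90.1% of the genes. A share of 50% or more, at which the antisense strand equals or exceeds the sense strand, was found in 162, 91, 62 and 46 genes, or 3.52%, 2.55%, 4.14% and 2.03%. For 93, 60, 44 and 34 of these the lower interval bound also exceeded 50%. The interval of a single share was 9.98, 10.4, 12.2 and 10.9 percentage points wide at the median gene. For such a gene the intervals of 2 libraries overlap at differences well under 10 points, and genes with more counts have narrower intervals.

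**Figure D1:**
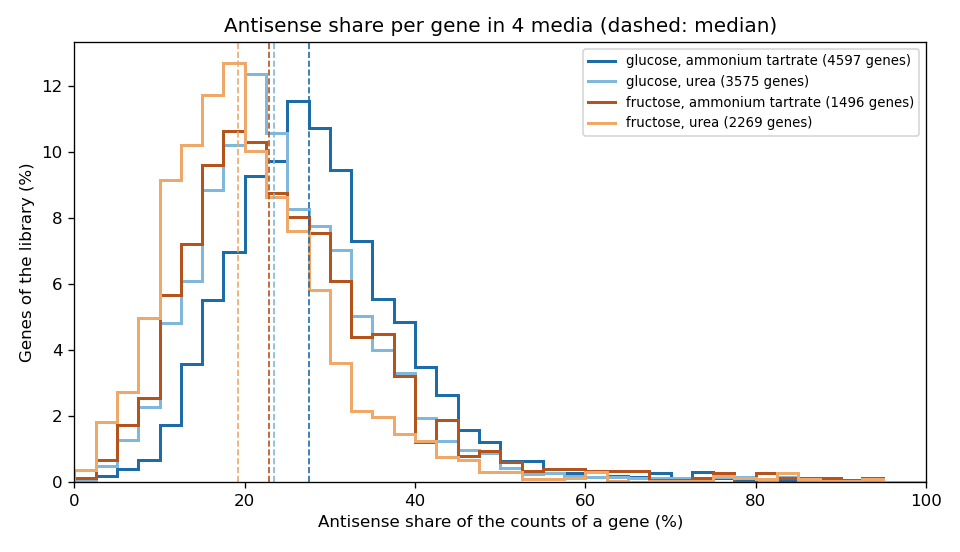
Distribution of the antisense share over genes in the 4 libraries; the x axis is the antisense share of the counts of a gene in percent, the y axis the percentage of the genes of that library, and dashed lines mark medians. The distribution for glucose with ammonium lies farthest right (median 27.6%) and that for fructose with urea farthest left (median 19.2%), and each library has a thin tail above 50%.

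The order of the medians held over the same genes. Among the 1019 genes that passed in all 4 libraries the medians were 26.4%, 22.2%, 21.9% and 19.2% in the same order as over all genes. Glucose with ammonium had the highest share of the 4 for 553 of these genes (54.3%), and fructose with urea the lowest for 527 (51.7%). Shares on the 2 sides of the count minimum were close. Genes with 100 to 109 counts, just inside it, had medians of 28.2%, 23.1%, 22.5% and 19.8%, and genes with 90 to 99 counts, just outside, 28.9%, 24.2%, 22.3% and 21.1%.

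Genes with more sense counts also had more antisense counts. Spearman's correlation between the strands was 0.890 over 6678 genes, 0.857 over 7099, 0.740 over 7194 and 0.755 over 7182. It is a description across genes, which are not replicates, and both counts come from the same library and the same gene length. From the genes with 100 to 200 counts to those with 5000 counts or more, the median share went from 28.2% (1436 genes) to 27.8% (96 genes) in glucose with ammonium and from 23.7% (1431) to 26.6% (54) in glucose with urea. With fructose it went from 22.9% (853) to 23.2% (6) with ammonium and from 19.7% (1178) to 19.5% (8) with urea.

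**Figure D2:**
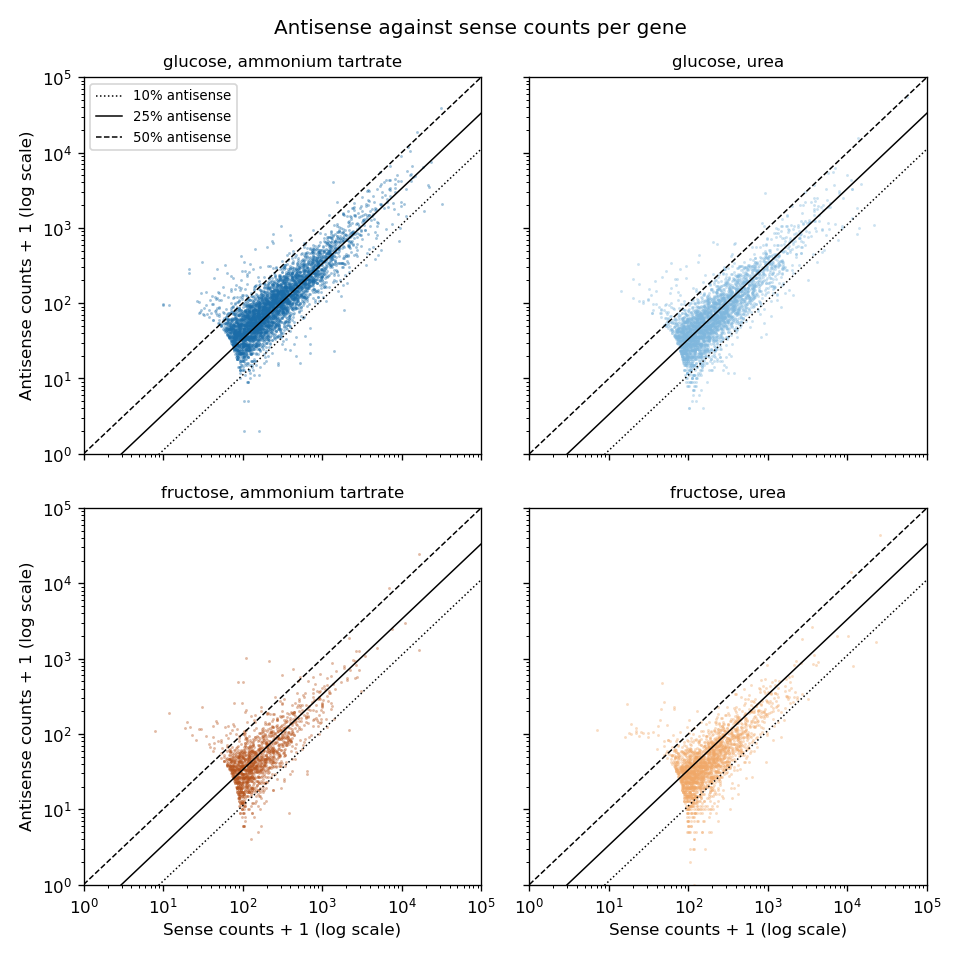
Antisense counts plus 1 against sense counts plus 1 for each gene that passed the minimum, 1 panel per library, both axes logarithmic; lines mark antisense shares of 10%, 25% and 50%. In each panel most genes lie along the 25% line over the whole range of counts, and a small set lies above the 50% line.

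The lowest shares were read among the genes with the most sense counts, where counting error is smaller than for most genes. In the fructose libraries they still rested on few antisense counts. Among the 200 genes with the most sense counts, the lowest share was 6.04% in glucose with ammonium, in AN8746, described as a possible pseudogene, with 32135 sense and 2065 antisense counts. It was 4.73% in glucose with urea, in AN1236, with 21661 and 1075 counts. In fructose with ammonium it was 2.05%, in AN2149 (cct1), with 382 and 8 counts, and in fructose with urea 3.99%, in AN1606, with 626 and 26 counts. The upper interval bounds of these shares are 6.30%, 5.01%, 4% and 5.79%, and the median share of the same 200 genes was 26.6%, 23.3%, 21.8% and 17.5%. The part of reads placed on the wrong strand in these shares was not tested. Over all genes that passed, the lowest shares were 0.613%, 1.53% and 2.05% in the first 3 libraries. In fructose with urea the lowest was 0 of 116 counts, for papA, a gene chosen here for this value. A count of 0 was taken here to leave room for about 3 counts, a set limit and not an exact bound.

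Some abundant genes had much the same share in each medium, whether low or high. AN11787, which has no description, had 19017, 13919, 16538 and 22874 sense counts and a share of 8.11%, 6.68%, 7.22% and 6.83%. AN8746 had 6.04%, 5.86%, 4.84% and 6.89%, although its sense counts went from 32135 in glucose with ammonium to 446 in fructose with urea. At the other end, AN4015, whose orthologs are translation factors that bind the ribosome, had 12156, 6884, 503 and 603 sense counts and shares of 49.1%, 47.8%, 49.7% and 42.7%. The thiamine synthesis gene nmt1 (AN8009) had shares of 45.6%, 45.3%, 46.3% and 40.4%. The low and the high genes lay much further apart than any of these 4 genes moved across media.

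The ribosomal protein gene rpl16a (AN4202) stood between, with 47.7%, 49.0%, 36.1% and 37.5%. The gene with the most antisense counts in all 4 libraries was AN5245, which has no description. It had 31178, 56277, 16634 and 25530 sense counts and 39066, 54718, 24358 and 43155 antisense counts, and its share was 55.6%, 49.3%, 59.4% and 62.8%. AN11489, described as a protein of unknown function induced by nitrate, had 18695, 15554, 8745 and 14104 antisense counts and a share of 54.7%, 53.5%, 56.1% and 55.8%. Neither gene has a place in the reference gene order used here, so their neighbours are not given.

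In 7 of the 1019 genes the share was 50% or more in all 4 libraries, against 41 in which it was so in at least 1. The highest of them by its lowest share was AN0859, which has no description. It had 59, 52, 109 and 24 sense counts and 324, 265, 1007 and 104 antisense counts, and its share was 84.6% (80.6% to 88.1%), 83.6% (79.1% to 87.5%), 90.2% (88.3% to 91.9%) and 81.2% (73.4% to 87.6%). All 4 intervals lay far above 50%. AN6091, with a predicted zinc-binding transcription factor domain, had 1055, 600, 916 and 229 antisense counts and shares of 77.9%, 72.7%, 81.2% and 77.9%. AN4248, with a predicted role in cysteine synthesis, had 68.0%, 85.0%, 88.2% and 82.8%, so its share was lowest where ammonium was given with glucose. AN8670, an open reading frame that left and re-entered the annotation per its description, had 93.3%, 88.7%, 81.2% and 60.6%. Its antisense level was 76.1, 78.2, 125 and 90.1 CPM, which are counts scaled to the same total of both strands in each library, and its sense level was 5.46, 9.93, 29.0 and 58.5 CPM. Its share was thus lowest where its sense level was highest.

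**Figure D3:**
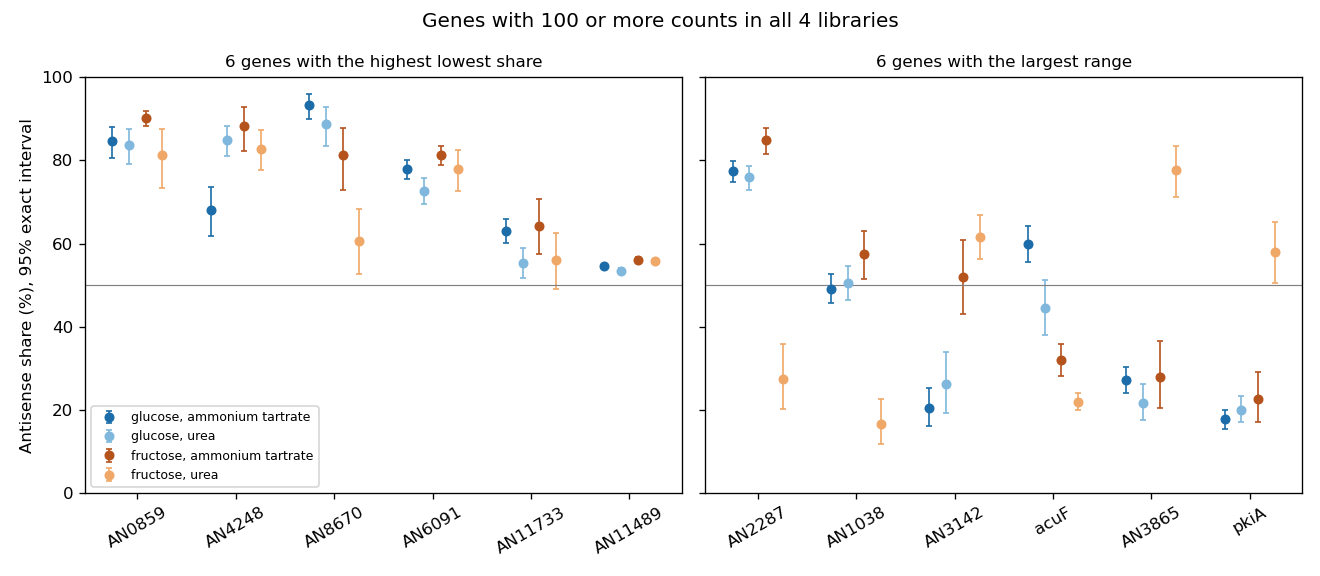
Antisense share in percent with its exact 95% interval in the 4 libraries, for genes with 100 or more counts in all of them; the left panel shows the 6 genes whose lowest share was highest, the right panel the 6 genes whose share ranged most, and the grey line marks 50%. AN0859 stays between 81.2% and 90.2%, whereas AN2287 falls to 27.5% and AN3865 reaches 77.7% only in fructose with urea.

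Several genes had a high share in the libraries where they passed the minimum. AN11288, with no description, had 92.6%, 93.8% and 94.5% in the first 3 libraries, from 20, 22 and 11 sense counts and 252, 333 and 190 antisense counts, and was under the minimum in fructose with urea. AN7467, also without a description, had 92.0% and 91.7% with glucose. AN10177 had 9 sense and 96 antisense counts in glucose with ammonium (91.4%), 30 and 225 in fructose with ammonium (88.2%) and 6 and 111 in fructose with urea (94.9%).

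Among named genes with a high share, stcJ (AN7815), the fatty acid synthase alpha subunit needed for the mycotoxin precursor sterigmatocystin, had 11 sense and 93 antisense counts in glucose with ammonium (89.4%) and 7 and 108 in fructose with ammonium (93.9%). It was under the minimum with urea. AN6638 (dmtA), a gene like cytosine methyltransferases that is required for sexual development, has an antisense transcript on record in its deposited description. It passed the minimum in fructose with urea, with 17 sense and 101 antisense counts and a share of 85.6% (77.9% to 91.4%). Its 3 other libraries held 6, 18 and 18 antisense counts. The gamma-aminobutyrate permease gene gabA (AN2962) had 104 and 93 sense counts and 354 and 214 antisense counts with glucose, or shares of 77.3% and 69.7%, and was under the minimum with fructose.

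A gene adjacent to AN0859 is hsp104 (AN0858), for a chaperone. The sense counts of hsp104 were 9763, 5955, 7629 and 1046, or 2664, 2572, 10070.2 and 971 CPM, and the antisense level of AN0859 was 88.4, 114, 1329 and 96.6 CPM. Both were highest in fructose with ammonium. The 2 genes are adjacent in the RefSeq gene order of assembly ASM1142v1, which was used for order alone, because the sources used here do not name the build of the deposited tables. That gene table gives no strand, so whether adjacent genes face each other could not be read. Reads of an adjacent transcript cannot be told apart from a separate antisense RNA. Where a single adjacent gene is named here or below, the values of the gene on the other side are not given. Such examples do not show whether the gene on the other side went along.

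Over all genes, an adjacent gene with many sense counts was common among genes of high and of low share. Among genes with both adjacent genes measured, at least 1 adjacent gene had as many sense counts or more than the gene had antisense counts for 73 of 95 genes with a share of 50% or more in glucose with ammonium, or 76.8%. The other genes of that library had such a neighbour in 78.6%. The same values were 68.6% beside 77.0% in glucose with urea, 52.5% beside 60.3% in fructose with ammonium and 56.0% beside 75.2% in fructose with urea. AN6091 is an example without one. Its adjacent genes AN6090 and AN6092 had 74 and 46 sense counts in glucose with ammonium, where AN6091 had 1055 antisense counts. The bar for an adjacent gene was the gene's own antisense count. At the same total of counts it is higher for a gene of high share, so lower percentages there are in part built in.

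The nitrogen source was compared first in glucose, urea against ammonium tartrate, over 3498 genes that passed in both libraries. The share was lower with urea in 71.7% of the genes, by 3.20 percentage points at the median, and 81.9% of genes lay within 10 points. A share higher by 20 points or more, the size used here to call a gene different, was found in 14 genes (0.4%), and a share lower by as much in 51 (1.46%). When each library was centred on its own median, in the log odds of the share, these counts became 32 higher and 23 lower, so the excess of lower genes rested on the shift of the whole library. After thinning to the depth of the shallowest library they were 0 and 13, and at a minimum of 200 counts 1 and 6. For 40 of the 51 lower genes the antisense level differed more than the sense level.

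Examples with the largest differences had few counts. AN9074, conserved in other Aspergillus species, had 47 sense and 286 antisense counts in glucose with ammonium (85.9%, interval 81.7% to 89.4%) and 59 and 67 in glucose with urea (53.2%, 44.1% to 62.1%). Its antisense log2 ratio was -1.42 and its sense log2 ratio 0.98. AN0944, a putative RNA helicase gene whose transcript is repressed by nitrogen limitation per its description, had 93 sense and 72 antisense counts with ammonium (43.6%) and 93 and 9 with urea (8.82%). Upward, AN11609 had 148 and 70 counts with ammonium (32.1%) and 51 and 76 with urea (59.8%), and AN10606, with a predicted zinc-cluster transcription factor domain, had 34.7% and 58.7%. The intervals of the 2 shares did not overlap for any gene called in this or the other 3 comparisons. This lack of overlap follows nearly from the calling rule and is no separate evidence for the calls. At the count minimum and the median share, an interval was 18.4, 17.3, 17.3 and 16.2 points wide. These widths are under the 20 points needed for a call.

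In fructose, 1112 genes could be compared between urea and ammonium. The share was again lower with urea in 66.0% of genes, by 2.74 points at the median. It was higher by 20 points or more in 12 genes (1.08%) and lower in 27 (2.43%), and 14 and 10 after centring. Thinning left 6 and 21, and a minimum of 200 counts 1 and 3. The nitrogen comparisons in glucose and in fructose share no library. Of the 1019 genes measured in both, 3 were lower and none higher in glucose, 24 were lower and 11 higher in fructose, and none was called in the same direction in both. With only 3 of 1019 genes called in glucose, the lack of overlap is no result about the genes.

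The largest downward difference between the fructose libraries was in AN2287, a predicted amino acid transporter gene. It had 238, 204, 86 and 100 sense counts and 817, 643, 482 and 38 antisense counts, and its share was 77.4% (74.8% to 79.9%), 75.9% (72.9% to 78.8%), 84.9% (81.6% to 87.7%) and 27.5% (20.3% to 35.8%). The antisense strand exceeded the sense strand in 3 media, and in fructose with urea the sense strand exceeded the antisense. Between the fructose libraries its sense log2 ratio was -0.29 and its antisense log2 ratio -4.14. An adjacent gene, alcC (AN2286), for alcohol dehydrogenase III, had 854, 882, 1400.5 and 41.8 CPM on its sense strand. The antisense strand of AN2287 had 223, 278, 636 and 35.3 CPM. Both were lowest in fructose with urea, with a sense log2 ratio of -5.04 for alcC between the fructose libraries.

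AN5861, whose orthologs have ketoreductase activity in fatty acid elongation, had 462, 323, 55 and 4 antisense counts and 719, 563, 89 and 118 sense counts. Its share was 39.1%, 36.5%, 38.2% and 3.28% (0.900% to 8.18%). An adjacent gene, mstE (AN5860), for a low-affinity glucose transporter, had 968, 1065, 19.8 and 24.1 CPM. Its sense level was thus already low in fructose with ammonium, where the share of AN5861 was still 38.2%. Here this adjacent gene and the antisense strand did not go together in every medium.

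AN1038, whose orthologs activate Rab GTPases in vesicle transport, had shares of 49.1%, 50.5%, 57.4% and 16.7% (11.9% to 22.6%). Its antisense log2 ratio between the fructose libraries was -2.80 and its sense log2 ratio -0.09, so its lower share came from the antisense strand.

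The largest opposite difference was in AN3865, whose orthologs are mitochondrial. It had 597, 289, 93 and 43 sense counts and 223, 80, 36 and 150 antisense counts, and shares of 27.2% (24.2% to 30.4%), 21.7% (17.6% to 26.2%), 27.9% (20.4% to 36.5%) and 77.7% (71.2% to 83.4%). Between the fructose libraries its sense log2 ratio was -1.60 and its antisense log2 ratio 1.52, so both strands took part. An adjacent gene, AN3866, a putative dehydratase gene of amino acid metabolism, had 7.37, 5.61, 239 and 1996 CPM on its sense strand. It was highest in the same library as the antisense strand of AN3865, while at 239 CPM in fructose with ammonium the share of AN3865 was 27.9%, with an interval that overlapped those of both glucose libraries.

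The pyruvate kinase gene pkiA (AN5210), for the last step of glycolysis, had 947, 556, 153 and 77 sense counts and 204, 140, 45 and 106 antisense counts. Its share was 17.7% (15.6% to 20.1%), 20.1% (17.2% to 23.3%), 22.7% (17.1% to 29.2%) and 57.9% (50.4% to 65.2%). Between the fructose libraries the sense log2 ratio was -1.49 and the antisense log2 ratio 0.71. The sterol demethylase gene pdmA (AN1901) had 28.7%, 23.7%, 27.9% and 59.0%, and the nuclear transport receptor gene kapF (AN6734) 26.0%, 24.1%, 14.4% and 42.6%. In all 3 genes the share was highest in fructose with urea.

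**Figure D4:**
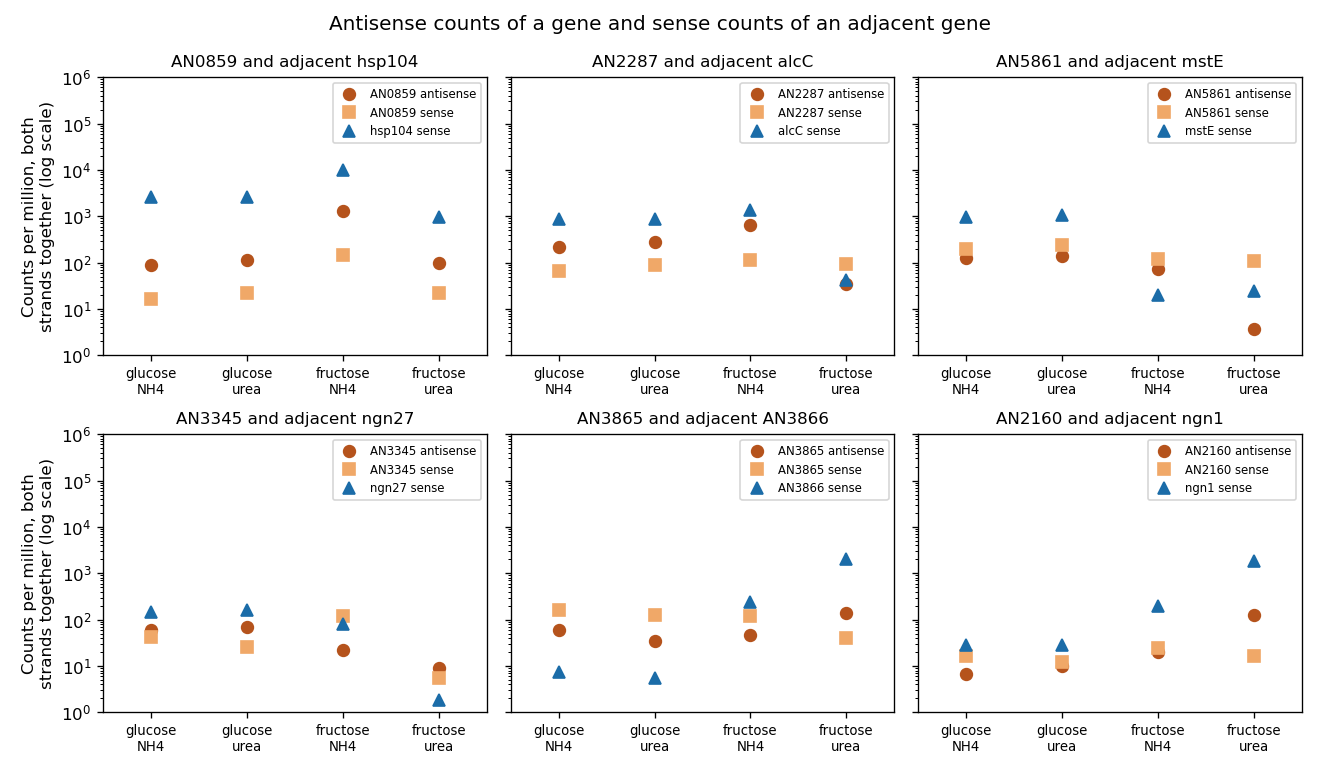
Level of the antisense strand and of the sense strand of 6 genes, and of the sense strand of a gene adjacent to each, in CPM on a logarithmic axis, by library; the pairs were chosen after their values were seen. In the AN2287 and AN2160 panels the antisense level of the gene and the sense level of the adjacent gene are highest in the same library and lowest in the same library, while in the AN5861 panel they part in fructose with ammonium, where mstE is at 19.8 CPM.

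The carbon source was compared in ammonium, fructose against glucose, over 1408 genes. The share was lower with fructose in 69.3% of genes, by 3.24 points at the median. It was higher by 20 points or more in 12 genes (0.852%) and lower in 19 (1.35%), which became 23 and 8 after centring. Thinning left 3 and 13, and a minimum of 200 counts 0 and 1. In all 12 higher genes the antisense level differed more than the sense level, with a median antisense log2 ratio of 2.01 and a median sense log2 ratio of 0.03. The count minimum also had to be met in the shallower fructose library, where a gene with a lower sense level could drop out. This split therefore depends in part on the minimum.

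AN5839, whose orthologs are cytosolic, had 224 sense and 40 antisense counts in glucose with ammonium (15.2%, 11.1% to 20.1%) and 34 and 94 in fructose with ammonium (73.4%, 64.9% to 80.9%). Its antisense log2 ratio was 3.49 and its sense log2 ratio -0.41. AN10606 went from 34.7% to 74.9% and AN6085, whose orthologs are nucleolar, from 32.1% to 66.4%. The stress kinase gene pbsA (AN0931), a MAP kinase kinase of osmotic stress signalling, had 32.4% in glucose and 60.3% in fructose, from 73 sense and 111 antisense counts there.

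Downward, AN3345, another predicted amino acid transporter gene, had 155 sense and 219 antisense counts in glucose with ammonium (58.6%, 53.4% to 63.6%) and 89 and 17 in fructose with ammonium (16.0%, 9.63% to 24.4%). Its sense log2 ratio was 1.48 and its antisense log2 ratio -1.34. An adjacent acetyltransferase gene, ngn27 (AN3344), had 147 and 81.8 CPM in these libraries. The phosphoenolpyruvate carboxykinase gene acuF (AN1918), for the first committed step of gluconeogenesis, went from 59.9% to 32.0%.

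In urea, 1696 genes could be compared between fructose and glucose. The share was lower with fructose in 68.9% of genes, by 3.11 points at the median, higher by 20 points or more in 14 genes (0.825%) and lower in 32 (1.89%). After centring, 28 were higher and 16 lower, after thinning 3 and 8, and at a minimum of 200 counts 3 and 6. Of the 32 lower genes, 20 differed more on the sense strand, against 8 of 19 in ammonium, with a median sense log2 ratio of 1.54 and a median antisense log2 ratio of -0.49. Whether the carbon comparisons differ in this respect was not tested, and the count minimum bears on both.

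The largest upward differences in share with fructose in urea were in AN7792, AN2208, AN3865 and AN6654. AN7792, a putative lysophospholipase gene, had 132 sense and 24 antisense counts in glucose (15.4%, 10.1% to 22.0%) and 30 and 102 in fructose (77.3%, 69.2% to 84.1%). AN2208, a putative galactose dehydrogenase gene, had 288 and 91 counts in glucose (24.0%) and 21 and 107 in fructose (83.6%, 76.0% to 89.5%), with a sense log2 ratio of -2.61 and an antisense log2 ratio of 1.34. AN6654, with a predicted glutamine synthetase domain, had 20% and 69.9%. A gene adjacent to it is acuE (AN6653), for malate synthase of acetate use, with 16.4, 30.2, 96.4 and 483 CPM on its sense strand. The antisense strand of AN6654 had 23.2, 20.7, 60.7 and 88.2 CPM. Both were highest in fructose with urea.

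Only AN3142 was higher by 20 points or more in both carbon comparisons, and only acuF lower, among the 1019 genes measured in both. These comparisons share no library. AN3142, conserved in other Aspergillus species, had 264, 110, 62 and 126 sense counts and 68, 39, 67 and 203 antisense counts, and shares of 20.5%, 26.2%, 51.9% and 61.7%. Its fructose intervals began at 43.0% and 56.2%, and its glucose intervals ended at 25.2% and 34.0%. An adjacent gene, AN3141, for a predicted anchored surface protein, had 0.273, 5.61, 30.4 and 166 CPM on its sense strand. The antisense strand of AN3142 had 18.6, 16.8, 88.4 and 188 CPM. Both were higher in each fructose library than in either glucose library.

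The gene acuF had 208, 129, 408 and 1229 sense counts and 311, 104, 192 and 346 antisense counts. Its share was 59.9% (55.6% to 64.2%), 44.6% (38.1% to 51.3%), 32.0% (28.3% to 35.9%) and 22.0% (19.9% to 24.1%), and no 2 of these intervals overlapped. Its sense level was 56.8, 55.7, 539 and 1141 CPM and its antisense level 84.9, 44.9, 253 and 321 CPM, so both strands were higher with fructose and the sense strand by more. Next to it, AN1919, without a description, had 16, 4, 55 and 212 antisense counts, and a share of 76.8% in fructose with urea, where alone it passed the minimum. The sense level of acuF and the antisense level of AN1919 were both highest in that library.

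Antisense differences and those of adjacent genes were then counted over the genes of each comparison with both adjacent genes measured. Of genes whose antisense level differed by 2-fold or more, an adjacent gene had a sense level that differed by 2-fold or more in the same direction in 36 of 253 genes (14.2%) for nitrogen in glucose. The count was 134 of 295 (45.4%) for nitrogen in fructose, 147 of 357 (41.2%) for carbon in ammonium and 258 of 479 (53.9%) for carbon in urea. Among those of these genes that were also called by their share, it was 3 of 29, 9 of 17, 8 of 16 and 12 of 18. They are only a part of the 65, 39, 31 and 46 genes called. Comparisons in which more genes differ on the sense strand also give more such neighbours, and the share that falls on adjacent genes in general was not tested. Without it, these counts do not tell whether adjacent genes go along with antisense changes.

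An abundant gene with antisense counts on both sides was the tartrate dehydrogenase gene AN4822, which acts on the anion given only with ammonium. Its sense counts were 2904, 12, 10897 and 35. The genes on either side, AN11233, with a predicted chitinase domain, and AN4821, with a predicted DNA-binding domain, had 142, 10, 735 and 5 and 52, 2, 254 and 8 antisense counts. AN11233 had a share of 66.7% and 63.4% in the ammonium libraries, and AN4821 72.2% in fructose with ammonium. The antisense strand of AN4822 itself held 979, 5, 2929 and 18 counts, or 25.2% and 21.2% in the libraries where it passed.

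A further adjacent pair was AN2160, conserved in other Aspergillus species, and ngn1 (AN2161), an acetyltransferase gene. AN2160 had 25, 23, 15 and 135 antisense counts and 60, 28, 19 and 18 sense counts, and passed in fructose with urea with 88.2% (82.0% to 92.9%). The sense level of ngn1 was 27.8, 28.9, 199 and 1825 CPM.

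Among genes without a deposited description, or described as a protein of unknown function or as uncharacterized, more had a high share than among all genes. A share of 50% or more was found in 32 of 118 such genes in glucose with ammonium (27.1%), 16 of 77 in glucose with urea (20.8%), 10 of 44 in fructose with ammonium (22.7%) and 9 of 50 in fructose with urea (18.0%). Over all genes the values were 3.52%, 2.55%, 4.14% and 2.03%. Their median shares were 32.2%, 24.3%, 27.4% and 21.6%. Of the 1026 genes of this group, 141 passed the minimum in any library, against 5103 of 8419 over all genes. The minimum counts both strands together, so a gene with few sense counts could pass only through its antisense counts. How far this bears on the excess was not tested, and the group was not set beside genes of like counts. Over all genes with 100 to 200 counts in glucose with ammonium, 5.57% were at 50% or more. In the small group of polyketide and nonribosomal peptide synthases, 2 of 7 genes in glucose with ammonium and 2 of 4 in fructose with ammonium were at 50% or more, and 0 of 1 and 0 of 5 with urea. Among the described groups, medians in glucose with ammonium lay between 25.1% for protein kinases and 31.3% for glycoside hydrolases.

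**Figure D5:**
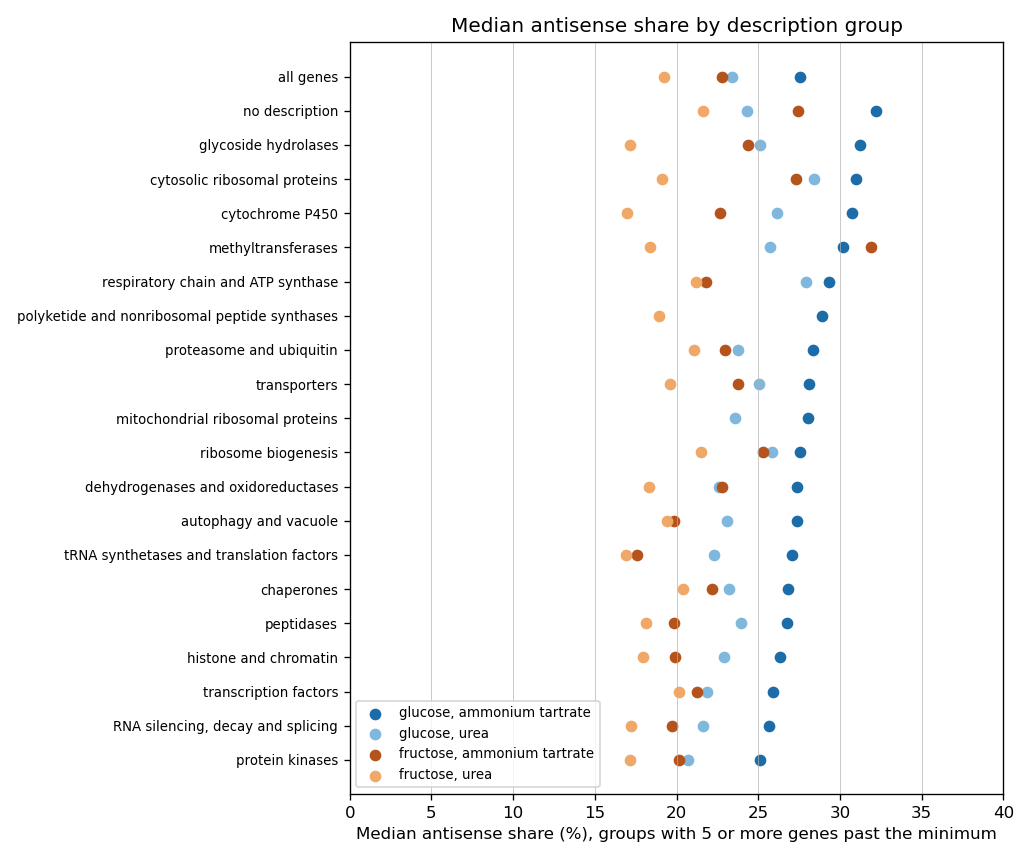
Median antisense share in percent by description group and library, for groups with 5 or more genes past the minimum in that library, with all genes at the top. In most groups glucose with ammonium has the highest median and fructose with urea the lowest, as over all genes (27.6% and 19.2%). A group can hold different genes in each library. The group labelled no description also holds genes described as a protein of unknown function or as uncharacterized.

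Cytosolic ribosomal protein genes had medians of 31.0% over 40 genes, 28.4% over 40, 27.3% over 27 and 19.1% over 8. As in other groups, the genes behind these medians differ between libraries. Over the same genes, the median difference for nitrogen was -1.56 points in glucose (40 genes). In fructose it was 0.71 points over 8 genes, of which 3 were lower. For carbon it was -4.16 points in ammonium (27 genes) and -3.73 points in urea (8 genes). Protein kinase genes lay low, with 25.1%, 20.7%, 20.1% and 17.1% over 80, 69, 24 and 48 genes. Genes matched by words for RNA silencing, decay and splicing had medians of 25.7%, 21.6%, 19.7% and 17.2% over 95, 70, 18 and 35 genes.

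Over all genes, 1.86% and 3.51% were called in either direction in the nitrogen comparisons (in glucose and in fructose) and 2.2% and 2.71% in the carbon comparisons (in ammonium and in urea). Genes for transporters, with median shares of 28.1%, 25%, 23.8% and 19.6%, had 1 of 111, 2 of 38, 1 of 44 and 1 of 46 called, near these shares. The RNA silencing, decay and splicing group had 2 of 70, 1 of 15, 0 of 18 and 0 of 33 called, which at these sizes is no result about the group.

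Transcription factor genes had medians of 25.9%, 21.9%, 21.2% and 20.2% and 8 of 127 genes at 50% or more in glucose with ammonium. Among them AN0885, with a predicted DNA-binding domain, had 67.1%, 55.5%, 65.7% and 40.6%. Genes of the respiratory chain and ATP synthase had 29.3%, 27.9%, 21.8% and 21.2%, with AN4388, a subunit of the cytochrome bc1 complex, at 54.8%, 61.5%, 54.4% and 42.0%. Genes for dehydrogenases and oxidoreductases had 27.4%, 22.6%, 22.8% and 18.3%. Their largest differences, beside AN2208 and AN5861, included the malate dehydrogenase gene mdhA (AN6717), with 45.1%, 42.1%, 42.6% and 15.1%.

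Genes of the 2 metabolic systems that the media address were read as lists of symbols. Of 12 glycolysis and fermentation genes, all passed in the first 3 libraries and 9 in fructose with urea. Their medians were 28.1%, 24.3%, 23.5% and 26.1%, and 1 of 9, pkiA, was called for nitrogen in fructose and for carbon in urea, beside 3.51% and 2.71% of all genes. A single call among 9 genes is no result about the list. The phosphofructokinase gene pfkA (AN3223) had 8192, 3946, 1459 and 102 sense counts, which are not scaled for library depth. Its shares were 28.9%, 23.6%, 21.1% and 17.1%, in the same order as the medians over all genes. The pyruvate decarboxylase gene pdcA (AN4888), among the most abundant with glucose at 23558 and 14701 sense counts, had 24.2%, 20.8%, 21.2% and 14.9%. The aldolase gene fbaA (AN2875) had 32.4%, 32.5%, 22.5% and 37.4%.

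Of 5 gluconeogenesis genes, acuF was called in both carbon comparisons (1 of 3 genes compared in ammonium) and the regulator gene acuK (AN7468) in urea (2 of 4), with 42.0% in glucose and 17.5% in fructose, beside 2.2% and 2.71% of all genes. With 3 and 4 genes compared, these calls are no result about the list. The enolase gene acuN (AN5746), which serves glycolysis and gluconeogenesis alike, had 40%, 38.0%, 39.4% and 35.9%. Of the ethanol and acetate genes, the aldehyde dehydrogenase gene aldA (AN0554) had 278, 182, 326 and 3582 sense counts and 174, 185, 287 and 2616 antisense counts, so that its share of 38.5%, 50.4%, 46.8% and 42.2% stayed high while both strands were highest in fructose with urea. The acetyl-CoA synthase gene facA (AN5626) had 32.7%, 19.9%, 26.8% and 25.2%.

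Of nitrogen genes, the glutamate dehydrogenase gene gdhA (AN4376) had 37.9%, 42.7%, 36.4% and 33.1%, the glutamine synthetase gene glnA (AN4159) 27.9%, 22.8%, 25.7% and 29.9%, and the glutamate synthase gene gltA (AN5134) 25.8%, 23.2%, 22.6% and 11.8%. The ammonium transporter gene meaA (AN7463) passed with glucose, at 33.2% and 30.9%. The nitrite reductase gene niiA (AN1007) had 24.6%, 19.0% and 16.8% in the 3 libraries in which it passed, and the nitrate regulator gene nirA (AN0098) 15.6%, 17.3%, 15.2% and 9.46%.

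Some genes for the use of poor nitrogen sources passed in a pair of libraries that no planned comparison joins. The molybdenum cofactor sulfurase gene hxB (AN1637), needed for purine use, had 44 sense and 78 antisense counts in glucose with ammonium (63.9%) and 166 and 36 in fructose with urea (17.8%). The acetamidase gene amdS (AN8777) had 61 and 65 counts (51.6%) and 498 and 89 counts (15.2%) in the same libraries. In both, the antisense counts differed less than the sense counts when both were taken in CPM. The urease accessory gene ureD (AN0232) had 36.1%, 32.5%, 44.5% and 26.1%, and the amide regulator gene amdR (AN4035) lay low with 10.5% and 5.91% with glucose and 2.14% in fructose with urea.

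Of the regulators themselves, the carbon repressor gene creA (AN6195) had 124, 79, 84 and 159 sense counts and 24, 22, 21 and 27 antisense counts, and shares of 16.2%, 21.8%, 20% and 14.5%. The nitrogen activator gene areA (AN8667) had 27.7% (21.9% to 34.0%) and 20% (14.5% to 26.5%) with glucose and 34.3% (27.2% to 42.1%) in fructose with urea, and was under the minimum in fructose with ammonium. The co-repressor gene nmrA (AN8168) passed in glucose with ammonium, at 30%, and the GATA factor gene areB (AN6221) in no library.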

How the data were processed

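Strand-specific libraries were made with the ScriptSeq v2 kit from RNA depleted of ribosomal RNA, with 10 amplification cycles, and sequenced as paired ends of 100 bases, per the labels' protocols. The authors deposited whole-number read counts per gene in 8 tables, 1 for the sense and 1 for the antisense strand of each of 4 comparisons, per the file headers. Of tools, the submitters' processing notes list HTSeq and edgeR, without versions. The aligner, genome build, annotation and treatment of reads over overlapping genes: not given in the sources used here. Where a gene stands in several tables, its count for a library is the same in each. The tables list only some genes, so the summed counts are those of listed genes, and 16 columns of normalised values were not used.

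The share was computed where both strands had a count and their sum reached 100. Comparisons used genes past this minimum in both libraries, and a difference of 20 percentage points counted as called. Log2 ratios used CPM, with the counts of both strands as the total, and a prior count of 1. Intervals are exact Clopper-Pearson 95% intervals from scipy 1.17.1, with pandas 2.3.3 in Python 3.11.15; edgeR 4.0.16 in R 4.3.3 gave TMM factors for an alternative. The calculation was tested on simulated data. The 20 description groups were read from words in the deposited descriptions ("cellul" without "cellular"), so a gene can fall in a group by word alone, as pkiA does among kinases. The 15 symbol lists held 135 symbols, of which 32 had no match, and of the RNA silencing symbols the matched one never passed the minimum.

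Genes were named by rule: the 5 highest shares per library, the 6 largest differences each way per comparison, up to 4 members per group by range, the 5 most abundant on each strand, the 6 highest and 6 most variable of genes past the minimum in all libraries, 4 regulators, and adjacent genes. Of 8419 identifiers, 7930 matched RefSeq ASM1142v1, used for gene order alone. Its table has no strand, so both adjacent genes were used in place of the opposite-strand neighbour. The groups, lists and genes were chosen with earlier results of these data known.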

Additional observations from a re-analysis of the deposited data

Results flagged for a closer look

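A set of 4 genes had antisense counts in glucose with ammonium and no sense count given there, and so entered no share. They are AN10187 with 105 antisense counts, AN11783 with 150, AN3119 with 122 and AN5723 with 113, each above the limit of 3 counts set here for a count of 0. Their sense counts are missing and are not known to be 0. AN11783, AN3119 and AN5723 had no sense count given in any library, and 98, 97 and 71 antisense counts in glucose with urea.

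In 2 genes the share differed by more than 15 points in opposite directions under the same change of medium, a limit chosen after the values were seen. These opposite differences were not tested, with 1 library in each medium. AN10373, conserved in other Aspergillus species, had shares of 29.0%, 10.7%, 10.3% and 27.9% in glucose with ammonium, glucose with urea, fructose with ammonium and fructose with urea. Its difference was -18.3 points for urea against ammonium in glucose and 17.7 points in fructose, and -18.7 points for fructose against glucose in ammonium and 17.3 points in urea. The vacuolar trafficking gene digA (AN2266) had 36.4%, 44.2%, 57.0% and 27.7%. Its difference was 20.6 points for fructose against glucose in ammonium and -16.5 points in urea.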

How the results depend on the processing

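Of 196 alternative values of the main results, 100 moved, which means a count that changed by more than 1.5 times or a median that left its own 95% interval. Of 206 values for single genes, 6 moved and none changed sign. For single genes, moved means a change of at least the distance from the centre to the edge of an interval. After centring it means a change of a fixed number of points. These 206 values leave out settings in which a gene fell under the minimum, as AN0944 and AN9074 did after thinning. They therefore say little about the genes with the fewest counts. No paired analysis was possible because each medium has 1 library, and for the same reason no library was left out. The precision of a share is set by the counts of its gene. The alternative without genes facing a convergent or overlapping neighbour was not run, for want of strand. Setting an unlisted strand to 0, using the comparison's own tables, TMM scaling and the demand that intervals do not overlap moved no value by these limits. The demand on intervals could hardly move a count, because the count minimum and the size of a call nearly keep intervals apart. Small changes were 162 to 166 genes at 50% or more in glucose with ammonium for the unlisted strand, and 11 to 8 higher genes with the larger antisense difference for carbon in urea under TMM. Lists of 4 values follow the media order of the report, and lists of comparisons give nitrogen first (in glucose, in fructose) and then carbon (in ammonium, in urea).

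At a minimum of 50 counts, genes at 50% or more numbered 270, 182, 148 and 132, genes at 10% or more 5600, 4782, 2627 and 3442, and the median in fructose with urea was 19.8%. Genes higher by 20 points were 57, 54, 59 and 61, and lower 169, 124, 101 and 144. At a minimum of 200 counts, genes at 50% or more numbered 82, 41, 28 and 14, genes at 10% or more 3122, 2068, 618 and 998, and the median in fructose with urea was 18.7%. Higher genes were then 1, 1, 0 and 3, and lower genes 6, 3, 1 and 6, so most called genes had under 200 counts in a library.

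After thinning to the shallowest library, the median in glucose with ammonium was 26.8%. Genes at 10% or more were 1480 and 1379 with glucose, genes at 50% or more 42 and 27 with glucose and 24 in fructose with urea. Higher genes were 0, 6, 3 and 3, and lower genes 13 for nitrogen in glucose and 8 for carbon in urea. Over the genes past the minimum in all 4 libraries, medians were 26.4%, 22.2% and 21.9% in the first 3 libraries. Genes at 10% or more were 1001 and 978 with glucose and 927 in fructose with urea, and genes at 50% or more 24, 17, 27 and 17. Higher genes were 0 for nitrogen in glucose, 5 for carbon in ammonium and 7 in urea, and lower genes 3, 10 and 16.

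Taking the 5th percentile of the share among the 200 most abundant genes (11.2%, 8.28%, 9.88% and 8.4%) as a wrong-strand rate, above the lowest shares of the same genes (6.04%, 4.73%, 2.05% and 3.99%), gave medians of 20.3%, 17.7%, 15.7% and 12.7%. Higher genes were then 26, 17, 16 and 22, and lower genes 57, 39, 36 and 59. A rate of 1% gave medians of 27.0%, 22.8%, 22.2% and 18.5%. The order of the 4 medians was the same under every setting above.

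At 10 points, 117, 56, 68 and 74 genes were higher and 517, 177, 224 and 268 lower. At 30 points, 0, 3, 4 and 9 were higher and 5, 3, 1 and 3 lower, so the excess of lower genes turned in both carbon comparisons. At a 4-fold ratio of antisense to sense, 2, 5 and 4 were higher and 30, 13 and 11 lower in the first 3 comparisons. With each library centred, higher genes were 32, 14, 23 and 28 and lower genes 23, 10, 8 and 16, so the excess of lower genes turned in all 4 comparisons.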
